A study of Mus musculus with 12 samples.

Results

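Col5a1, Col9a3, Ecm1, Spp1, Muc6, Twsg1 and Fgl2 are 7 mouse genes whose products are secreted or act at the cell surface, grouped here as secreted matrix genes. They were picked from the 55471 rows of the gene count table for their pattern over the 3 groups of Ba/F3 lines, so every comparison between the groups was used in choosing them and their levels, fold changes and calls are given as a description and support nothing. Ba/F3 is an interleukin-3 (IL-3) dependent mouse haematopoietic line, labelled here as pro-B cells. The groups were 4 lines expressing BCR-ABL1, grown without IL-3, 4 lines expressing SFPQ-ABL1, grown without IL-3, and 4 lines carrying the empty vector MSCV, grown with 0.5 ng/ml murine IL-3. The labels call the 4 lines of a group independent, and whether a line is 1 clone is not given in the sources used here. Both fusions join the ABL1 tyrosine kinase to a partner, and SFPQ-ABL1 takes its partner from a nuclear RNA-binding protein. In comparisons with MSCV the fusion and the absence of IL-3 cannot be told apart, and both use the same 4 MSCV libraries.

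The extracellular matrix is built from collagens, glycoproteins and proteoglycans that cells secrete, and cells read it through integrins, CD44 and other receptors. Collagen chains work as trimers: Col5a1 encodes the alpha 1 chain of type V collagen, a fibril-forming collagen that pairs with the Col5a2 chain, and Col9a3 encodes the alpha 3 chain of type IX collagen of cartilage, which pairs with Col9a1 and Col9a2. Ecm1 is a secreted glycoprotein that binds perlecan and other matrix proteins. Spp1 (osteopontin) is a secreted phosphoprotein that binds integrins and CD44, Muc6 is a gel-forming mucin of gastric glands, Twsg1 (twisted gastrulation) is a secreted protein that binds bone morphogenetic proteins (BMPs) together with chordin, and Fgl2 is a fibrinogen-like protein made by T cells and macrophages that acts as a prothrombinase at the cell surface and as a soluble ligand of the inhibitory Fc receptor Fcgr2b.

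RefSeq promoter windows (build GRCm38.p6, 250 bases before to 50 after the annotated start) were at hand for 6 of the 7 genes, all but Col9a3. The windows of 4 genes are printed because the group means of these genes stood in 4 different orders. All are read 5′ to 3′ on the gene's strand, and capitals mark matches, on either strand, to the motifs searched: TTCNNNGAA (a spaced palindrome of STAT factors), its form with a spacer 1 base longer, TGANTCA (AP-1), TGACGTCA (CREB and ATF factors), CACGTG (the E-box of MYC and related factors) and GGGCGG (the GC box).
Col5a1, chr2:27886175-27886474, plus strand: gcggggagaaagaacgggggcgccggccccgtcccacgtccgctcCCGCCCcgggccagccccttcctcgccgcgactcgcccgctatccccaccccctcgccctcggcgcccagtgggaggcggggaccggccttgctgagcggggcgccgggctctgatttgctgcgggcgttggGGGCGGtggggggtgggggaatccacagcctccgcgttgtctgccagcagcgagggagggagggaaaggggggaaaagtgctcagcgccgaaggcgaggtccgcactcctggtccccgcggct
Twsg1, chr17:65951138-65951437, minus strand: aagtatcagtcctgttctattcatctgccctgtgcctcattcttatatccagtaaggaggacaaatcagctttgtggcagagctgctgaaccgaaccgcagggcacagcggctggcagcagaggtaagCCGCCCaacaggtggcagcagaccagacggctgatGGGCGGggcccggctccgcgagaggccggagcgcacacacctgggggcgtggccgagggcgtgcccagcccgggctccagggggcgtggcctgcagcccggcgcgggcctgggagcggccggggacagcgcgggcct
Spp1, chr5:104434861-104435160, plus strand: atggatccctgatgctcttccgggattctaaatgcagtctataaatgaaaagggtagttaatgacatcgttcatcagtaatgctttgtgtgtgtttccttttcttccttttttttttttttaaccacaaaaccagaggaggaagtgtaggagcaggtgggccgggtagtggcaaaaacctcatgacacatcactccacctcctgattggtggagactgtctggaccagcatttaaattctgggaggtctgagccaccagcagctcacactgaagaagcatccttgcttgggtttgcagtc
Fgl2, chr5:21372423-21372722, plus strand: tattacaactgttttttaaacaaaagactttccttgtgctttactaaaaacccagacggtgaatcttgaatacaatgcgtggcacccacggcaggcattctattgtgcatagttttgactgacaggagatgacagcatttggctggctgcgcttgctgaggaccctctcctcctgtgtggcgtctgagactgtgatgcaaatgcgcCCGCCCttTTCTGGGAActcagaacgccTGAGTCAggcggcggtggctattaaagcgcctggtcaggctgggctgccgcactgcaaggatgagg
The Col5a1 and Twsg1 windows each held 2 GC boxes and no other match, and their GC contents were 75% and 68%. The Col5a1 window lies at the start of exon 1, which held 0 of the deposited exon counts. Whether the Col5a1 reads come from transcripts begun at that start was not tested. The Spp1 window printed, at 45.3% GC, held no match, and neither did a second Spp1 window in the table (chr5:104435942-104436241, 36.7% GC). The Fgl2 window held TTCTGGGAA 36 bases before the start, TGAGTCA 16 bases before it and a GC box 44 bases before it, and no match overlapped another. Among the windows not printed, that of Ecm1 held TGAGTCA 64 bases before the start and a GC box 42 bases before it, and that of Muc6 held none. Over all 32851 promoter windows, TTCNNNGAA was present in 8.30%, the form with the longer spacer in 6.95%, TGANTCA in 7.81%, TGACGTCA in 1.79%, CACGTG in 7.15% and GGGCGG in 35.7%, and the median GC content was 52.7%. A match is a description of these letters and not of a factor's binding.

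All libraries held between 59355018 and 80616227 gene counts, and levels are given in CPM (counts divided by the library's gene total per 1e6, scaled by the trimmed mean of M-values, TMM), where 1 CPM stood for 61.1 to 82.2 counts. All 7 genes passed the filter on low counts, as did 17197 genes in all. A gene is said to be called where edgeR's quasi-likelihood test gave an adjusted p under 0.05 (Benjamini-Hochberg over all genes tested). In BCR-ABL1 against MSCV lines 5 of the 7 genes were called, 1 higher and 4 lower, beside 32.1% of all genes tested. In SFPQ-ABL1 against MSCV lines 2 were called, both lower, beside 1.79% of all genes (0.814% higher and 0.977% lower). In SFPQ-ABL1 against BCR-ABL1 lines all 7 were called, 5 higher and 2 lower, beside 26% of all genes. The lines did not overlap for 5, 4 and 5 of the 7 genes in these comparisons, beside 31.6%, 11.2% and 27.9% of all genes. The 4 genes that separated SFPQ-ABL1 from MSCV lines (Col5a1, Col9a3, Spp1 and Fgl2) were all lower, beside 6.24% of all genes separated in that direction. Since these contrasts chose the genes, nothing is read from the counts. The 2 calls against MSCV, Col5a1 and Fgl2, were both lost without SFPQ-ABL1 line 4 or without MSCV line 2, 3 or 4. There 1 was lost without SFPQ-ABL1 line 1 or 3, and the count was 4 without SFPQ-ABL1 line 2, where Ecm1 and Twsg1 were called higher, and 3 without MSCV line 1, where Col9a3 was called.

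**Figure D1:**
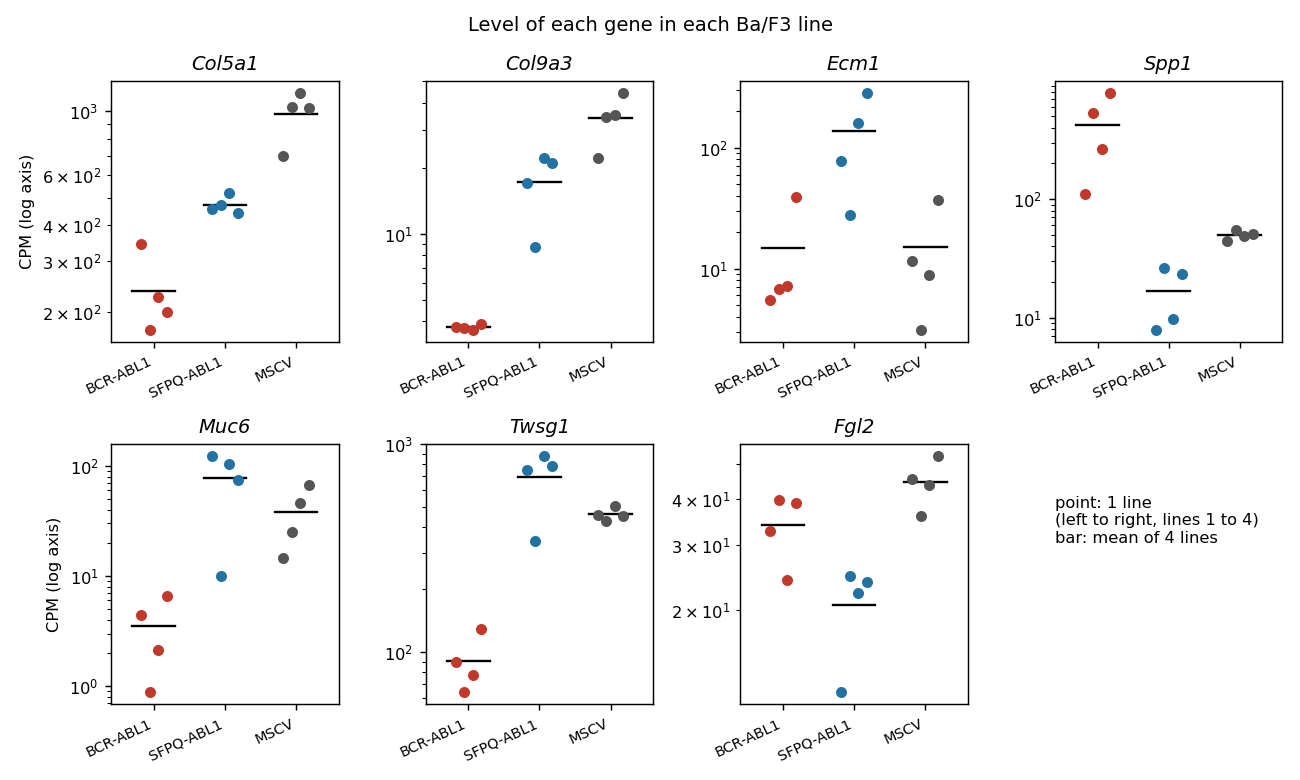
Level of each of the 7 genes in each line, in TMM-scaled CPM on log axes, with BCR-ABL1, SFPQ-ABL1 and MSCV lines in each panel. Points are single lines 1 to 4 from left to right and bars are means of 4 lines. Col5a1 falls in 3 separate tiers. Col9a3 has the same order, with SFPQ-ABL1 line 3 and MSCV line 1 nearly touching at 22.3 CPM. Spp1 lies at 109.6 to 789.7 CPM in BCR-ABL1 lines, above all other lines.

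Col5a1 stood at 3 separate levels. It had 344, 173, 226 and 199.6 CPM in BCR-ABL1 lines 1 to 4, 457, 470.2, 518 and 442 CPM in SFPQ-ABL1 lines, and 696, 1037, 1159.6 and 1025 CPM in MSCV lines. No line of one group reached the range of another. Its mean was 236 ± 75.6 CPM in BCR-ABL1 lines, 472 ± 32.6 CPM in SFPQ-ABL1 lines and 979 ± 199 CPM in MSCV lines (SD, n = 4 each). For Col5a1 the log2 fold change was -2.06 ± 0.20 (SE) in BCR-ABL1 against MSCV lines, -1.05 ± 0.20 for SFPQ-ABL1 over MSCV lines and 1.002 ± 0.198 in SFPQ-ABL1 against BCR-ABL1 lines. Each SE of a log2 fold change was worked back from the F statistic of the test, since edgeR gives none. The gene (ENSMUSG00000026837) lies on the plus strand of mm10 at chr2:27886425-28039514, with 8490 bases of merged exons.

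Col9a3 had the same order of groups. It had 3.75, 3.73, 3.66 and 3.87 CPM in BCR-ABL1 lines, 17.2, 8.72, 22.3 and 21.2 CPM in SFPQ-ABL1 lines, and 22.3, 34.3, 35.0 and 44.3 CPM in MSCV lines. The BCR-ABL1 lines were nearly identical, with a coefficient of variation of 2.38%, at the 0.314 percentile of the 1909 genes within 2-fold of that level. SFPQ-ABL1 line 3 at 22.3004 CPM and MSCV line 1 at 22.3287 CPM nearly touched, while no BCR-ABL1 line came near either group. For Col9a3 the log2 fold change was -3.18 ± 0.27 in BCR-ABL1 against MSCV lines, -0.97 ± 0.25 for SFPQ-ABL1 over MSCV lines and 2.21 ± 0.27 in SFPQ-ABL1 against BCR-ABL1 lines. Col9a3 (ENSMUSG00000027570, chr2:180597790-180622189, plus strand) overlaps exons of Tcfl5 on the other strand at its end, and since the sources used here do not say that strand was used in counting, reads there cannot be told apart.

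The partner chains named above, Col5a2 for Col5a1 and Col9a1 and Col9a2 for Col9a3, were near 0. Col5a2 had 2 counts in all 12 libraries together and Col9a1 also had 2, while Col9a2 averaged 0.339 ± 0.232 CPM in BCR-ABL1 lines, 0.274 ± 0.127 in SFPQ-ABL1 lines and 0.299 ± 0.199 in MSCV lines. A count of 0 in a library allows up to 3 counts, which is 0.0365 to 0.0491 CPM, and such limits cover counting error only. Col1a2 and Col3a1, chains of the fibrils that type V collagen joins, had 12 counts each in all libraries, and Col1a1 averaged 0.539, 0.594 and 0.707 CPM in BCR-ABL1, SFPQ-ABL1 and MSCV lines. Col5a3, an alternative type V chain, averaged 1.26 ± 0.437 CPM in BCR-ABL1 lines, 0.228 ± 0.130 in SFPQ-ABL1 lines and 0.259 ± 0.108 in MSCV lines. Thus Col5a1 had its lowest group mean, and Col5a3 its own highest, in BCR-ABL1 lines.

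The deposited exon counts showed where on these transcripts the reads lay. They hold 18% of the gene totals, the choice of those reads is not given in the sources used here, and for Col5a1 they hold 9.25% of its gene counts. On the Col5a1 transcript with the most counts, which has 66 exons, exons 65 and 66 held 45415 of 45590 exon counts (99.6%) on 34.2% of the transcript's length. Exons 1 to 64 held 175 counts, which is 0.384% of the counts on 65.8% of the length. The share on exons 1 to 64 was 0.0861% to 0.453% in BCR-ABL1 lines, 0.348% to 0.967% in SFPQ-ABL1 lines and 0.280% to 0.349% in MSCV lines. Exons 65 and 66 together held 5772 counts in BCR-ABL1 lines, 12019 in SFPQ-ABL1 lines and 27624 in MSCV lines, in the order of the gene counts. The counts step up at exon 65, which had 4464 counts in all libraries. It is printed because the covered stretch begins there, in lower case since no motif is marked, from the GENCODE M21 transcript on the plus strand of mm10; all 234 bases are coding, in the part of the chain that is cut off as the carboxyl-terminal propeptide.
Col5a1 exon 65, chr2:28032591-28032824: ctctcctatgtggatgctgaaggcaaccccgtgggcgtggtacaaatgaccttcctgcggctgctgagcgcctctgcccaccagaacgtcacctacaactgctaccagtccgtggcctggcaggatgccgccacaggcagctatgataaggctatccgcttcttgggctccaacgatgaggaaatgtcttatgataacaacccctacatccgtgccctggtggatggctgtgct

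Long and short exons of Col5a1 were both nearly empty before the step. Exons 1, 2, 3, 4, 7 and 8 of Col5a1, each of 163 to 500 bases, had 0 counts, and exon 62, of 256 bases, had 35. In Col9a3 the 22 exons under 100 bases between exons 9 and 33 held 467 counts per kb, and the 2 exons of at least 150 bases held 381 per kb. Among 1338 genes of at least 20 exons with both kinds, exons under 100 bases held 0.753 times the counts per base of exons of at least 150 bases (median). Among 1343 such long genes the last 2 exons held a median of 35.9% of the exon counts, with 5% of genes above 77.5%. Only 3 of the 1343 had a larger share than Col5a1. The antisense genes 2810430I11Rik and Gm13372 overlap exons of Col5a1, and reads shared with them cannot be told apart. Exon blocks were set after the profile was seen.

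**Figure D2:**
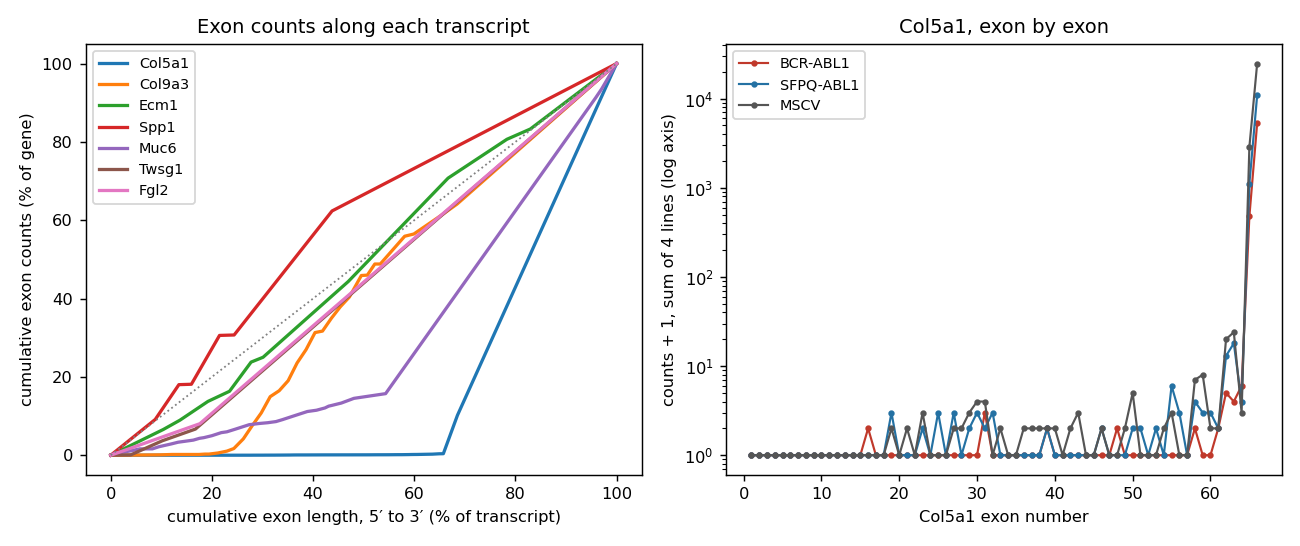
Left, cumulative share of deposited exon counts (12 libraries together) against cumulative exon length for the transcript of each gene with the most counts, where the dotted line marks an even spread. Right, counts + 1 of each Col5a1 exon summed over the 4 lines of a group, on a log axis; exons 65 and 66 hold 99.6% of the counts in the 12 libraries.

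Coverage of the other transcripts varied. On that of Col9a3, with 33 exons, the first exons were nearly empty too. Exons 1 to 8 held 3 of 1057 counts on 19.4% of the length, or 5.08 counts per kb, against 429 per kb on exons 9 to 33. The last 2 exons of Col9a3 held 38.2%, near the median of long genes. On that of Muc6, exon 32 of 34, the large repeat-rich exon, held 75.5% of 2411 counts on 41.5% of the length. The ratio of BCR-ABL1 to MSCV lines was 0.0722 on Muc6 exons 1 to 31 and 0.0796 on exons 32 to 34, and that of SFPQ-ABL1 to MSCV lines was 1.94 and 2.06, so both stretches gave the same order. Twsg1 held 93.3% of its counts on the last of 5 exons (83.3% of the length), Fgl2 92.0% on the second of 2 (82.4%), and Ecm1 was covered over all 11 exons. On Spp1, exons 1 to 6 had 10.2 times the level in BCR-ABL1 lines that they had in MSCV lines, and exon 7 had 8.23 times. The short Spp1 exons 3 and 5, of 36 and 42 bases, held 58 and 62 counts, beside 5026 and 7061 on exons 2 and 4.

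Ecm1 was highest in SFPQ-ABL1 lines on average and had the largest coefficient of variation of the 7 genes in each group. It had 5.49, 6.74, 7.17 and 39.3 CPM in BCR-ABL1 lines, 78.2, 27.8, 159 and 284 CPM in SFPQ-ABL1 lines, and 11.4, 3.12, 8.79 and 36.8 CPM in MSCV lines. Line 4 was the highest of its group in all 3 groups, and SFPQ-ABL1 line 2 lay within the range of both other groups. Its coefficient of variation was 112% in BCR-ABL1 lines, 81.5% in SFPQ-ABL1 lines and 99.1% in MSCV lines, beside medians over all genes tested of 14.5%, 15.03% and 17.1%. For Ecm1 the log2 fold change was -0.03 ± 0.83 in BCR-ABL1 against MSCV lines, 3.19 ± 0.89 for SFPQ-ABL1 over MSCV lines and 3.23 ± 0.89 in SFPQ-ABL1 against BCR-ABL1 lines. Without BCR-ABL1 line 4 these were -1.22, 3.19 and 4.41. Ecm1 (ENSMUSG00000028108) lies at chr3:95734147-95739569 on the minus strand.

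Spp1 had its highest level in BCR-ABL1 lines. It had 109.6, 530.5, 266 and 789.7 CPM in BCR-ABL1 lines, 7.89, 26.4, 9.77 and 23.4 CPM in SFPQ-ABL1 lines, and 44.5, 54.6, 49.2 and 50.5 CPM in MSCV lines. The 3 groups did not overlap, and the MSCV lines were close together (coefficient of variation 8.37%) while the BCR-ABL1 lines spanned a 7.20-fold range. For Spp1 the log2 fold change was 3.09 ± 0.53 in BCR-ABL1 against MSCV lines, -1.56 ± 0.51 for SFPQ-ABL1 over MSCV lines and -4.65 ± 0.57 in SFPQ-ABL1 against BCR-ABL1 lines. The last was 25.2-fold, the largest difference of any of the 7 genes. Spp1 (ENSMUSG00000029304, chr5:104435118-104441050, plus strand) shares exons with the same-strand record Gm42793, where reads cannot be told apart.

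Several transcripts of receptors for osteopontin were present in all groups. Itgb1, the beta 1 integrin subunit, averaged 536 ± 53.3 CPM in BCR-ABL1 lines, 520.4 ± 67.9 in SFPQ-ABL1 lines and 517 ± 28.6 in MSCV lines. Cd44 averaged 153 ± 17.1, 190.1 ± 20.6 and 222 ± 41.0 CPM in BCR-ABL1, SFPQ-ABL1 and MSCV lines, and was called lower in BCR-ABL1 against MSCV lines. Itgav, the alpha V subunit, averaged 75.6 ± 21.9, 58.4 ± 3.46 and 51.1 ± 4.68 CPM in the same groups and was called higher in BCR-ABL1 against MSCV lines, a call that was lost without BCR-ABL1 line 2 or 4 or MSCV line 1. Itga4, the alpha 4 subunit, averaged 207 ± 40.6 CPM in BCR-ABL1 lines, 386 ± 108 in SFPQ-ABL1 lines and 690.3 ± 245 in MSCV lines. The integrin beta subunit gene Itgb3 averaged 11.7 ± 10.4, 7.84 ± 6.54 and 4.32 ± 4.08 CPM in BCR-ABL1, SFPQ-ABL1 and MSCV lines. Itgb5, another, averaged 0.372 ± 0.286, 0.195 ± 0.176 and 0.113 ± 0.0665 CPM in the same groups. Itga9 had 1 count in all libraries.

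Muc6 was lowest in BCR-ABL1 lines and varied widely in the others. It had 4.38, 0.877, 2.13 and 6.65 CPM in BCR-ABL1 lines, 124, 9.96, 103 and 75.0 CPM in SFPQ-ABL1 lines, and 14.5, 25.2, 45.9 and 67.4 CPM in MSCV lines. Each BCR-ABL1 line was below all 8 other lines, and SFPQ-ABL1 line 2 was below all MSCV lines while lines 1, 3 and 4 of that group were above them. For Muc6 the log2 fold change was -3.45 ± 0.76 in BCR-ABL1 against MSCV lines, 1.03 ± 0.68 for SFPQ-ABL1 over MSCV lines and 4.48 ± 0.79 in SFPQ-ABL1 against BCR-ABL1 lines. Other gel-forming mucins were near 0: Muc5ac had 0 counts, Muc5b had 32 and Muc2 had 40 in all 12 libraries. The trefoil factor Tff2, which is secreted with Muc6 in the stomach, had 2 counts. Muc6 (ENSMUSG00000048191) lies at chr7:141633456-141655319 on the minus strand.

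Twsg1 was lowest in BCR-ABL1 lines and, on average, highest in SFPQ-ABL1 lines. It had 89.9, 63.98, 77.3 and 129 CPM in BCR-ABL1 lines, 752, 342, 879.8 and 787 CPM in SFPQ-ABL1 lines, and 457, 428, 505 and 452 CPM in MSCV lines. BCR-ABL1 lines were below all other lines, and 3 of 4 SFPQ-ABL1 lines were above all MSCV lines, with SFPQ-ABL1 line 2 below them. For Twsg1 the log2 fold change was -2.35 ± 0.27 in BCR-ABL1 against MSCV lines, 0.58 ± 0.26 for SFPQ-ABL1 over MSCV lines and 2.94 ± 0.28 in SFPQ-ABL1 against BCR-ABL1 lines. Without SFPQ-ABL1 line 2 the value against MSCV lines was 0.80. Twsg1 (ENSMUSG00000024098) lies at chr17:65921972-65951226 on the minus strand.

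Transcripts of chordin and of the BMPs looked at here as proteins that Twsg1 binds were near 0 in these cells. Bmp2 had 1 count, Bmp4 2, Bmp7 1 and Chrd (chordin) 6 in all 12 libraries together, and Nog (noggin, another BMP antagonist) had 0, which allows up to 3 counts, or 0.00346 CPM over the 12 libraries. Of the type I receptors, Bmpr1a had 1 count and Bmpr1b 0. The type II receptor Bmpr2 averaged 32.9 ± 4.51 CPM in BCR-ABL1 lines, 24.6 ± 1.59 in SFPQ-ABL1 lines and 23.9 ± 1.58 in MSCV lines, and was called lower in SFPQ-ABL1 against BCR-ABL1 lines and higher in BCR-ABL1 against MSCV lines. The signal transducer Smad5 averaged 70.4 ± 4.45, 79.6 ± 7.36 and 70.2 ± 6.99 CPM in BCR-ABL1, SFPQ-ABL1 and MSCV lines.

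Fgl2 varied least of the 7 genes over the 12 lines, with a root mean square deviation of 0.574 in log2 CPM. It had 32.9, 39.9, 24.1 and 39.1 CPM in BCR-ABL1 lines, 11.9, 24.6, 22.2 and 23.8 CPM in SFPQ-ABL1 lines, and 45.4, 36.1, 43.8 and 52.7 CPM in MSCV lines. SFPQ-ABL1 lines were below all MSCV lines, BCR-ABL1 lines overlapped both groups, and SFPQ-ABL1 line 2 at 24.6 CPM was just above BCR-ABL1 line 3 at 24.1 CPM. For Fgl2 the log2 fold change was -0.39 ± 0.22 in BCR-ABL1 against MSCV lines, -1.11 ± 0.22 for SFPQ-ABL1 over MSCV lines and -0.72 ± 0.22 in SFPQ-ABL1 against BCR-ABL1 lines. The receptor gene Fcgr2b averaged 1.34 ± 0.481 CPM in BCR-ABL1 lines, 5.82 ± 3.28 in SFPQ-ABL1 lines and 0.993 ± 0.529 in MSCV lines. Fgl2 (ENSMUSG00000039899, chr5:21372642-21378374, plus strand) lies inside Ccdc146 on the other strand, without exon overlap.

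**Figure D3:**
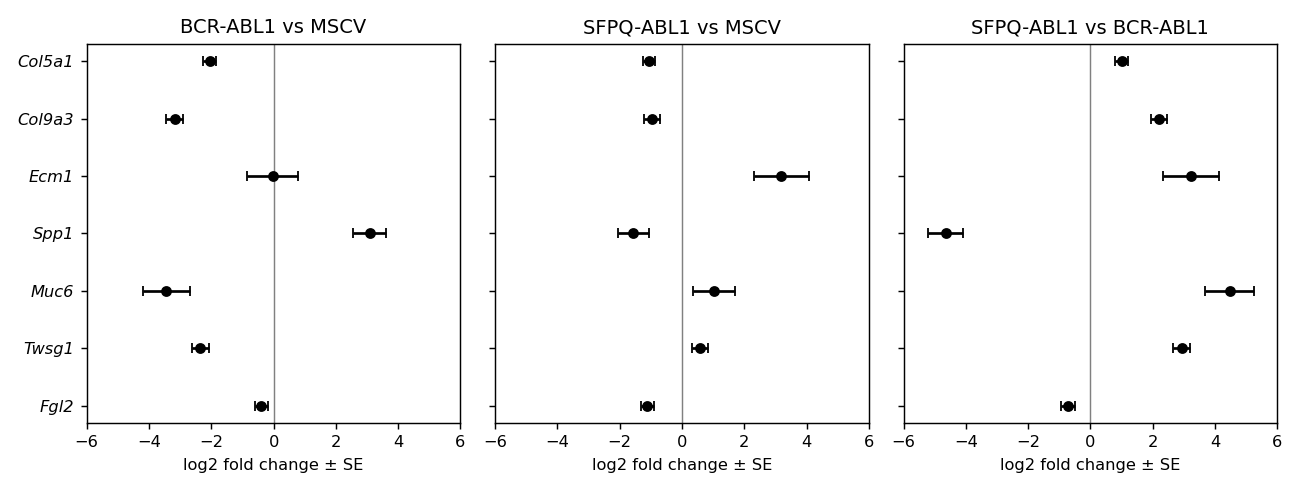
Log2 fold change (edgeR, 12 libraries) of the 7 genes for BCR-ABL1 over MSCV lines (left), SFPQ-ABL1 over MSCV (middle) and SFPQ-ABL1 over BCR-ABL1 (right). Bars are an SE worked back from the F statistic of each test. In the last panel Spp1 lies at -4.65 and Muc6 at 4.48, while Fgl2 at -0.72 is nearest to 0; comparisons share libraries.

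SFPQ-ABL1 line 2 was the lowest of its group for Col9a3, Ecm1, Muc6 and Twsg1 and the highest for Spp1 and Fgl2. Without it the log2 fold change in SFPQ-ABL1 against MSCV lines was -0.75 for Col9a3, 3.53 for Ecm1, -1.87 for Spp1, 1.39 for Muc6 and -1.21 for Fgl2. In SFPQ-ABL1 against BCR-ABL1 lines it was 2.43 for Col9a3, 3.56 for Ecm1, -4.96 for Spp1, 4.84 for Muc6 and 3.16 for Twsg1. No direction changed. Its gene total was within the range of the other libraries.

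Levels of different genes were compared per kb of merged exons. In BCR-ABL1 lines the order was Spp1 (257 ± 182 CPM per kb), Col5a1 (27.7 ± 8.91), Twsg1 (17.5 ± 5.46), Fgl2 (8.98 ± 1.93), Ecm1 (5.83 ± 6.53), Col9a3 (0.974 ± 0.0231) and Muc6 (0.375 ± 0.272). In SFPQ-ABL1 lines Twsg1 came first at 134 ± 46.2 CPM per kb, then Col5a1 at 55.6 ± 3.84 and Ecm1 at 54.4 ± 44.4, with Spp1, Muc6, Fgl2 and Col9a3 between 10.2 and 4.50. In MSCV lines it was Col5a1 (115 ± 23.4 CPM per kb), Twsg1 (89.4 ± 6.29), Spp1 (30.2 ± 2.52), Fgl2 (11.8 ± 1.79), Col9a3 (8.82 ± 2.34), Ecm1 (5.96 ± 5.91) and Muc6 (4.09 ± 2.499). The Col5a1 length includes exons 1 to 64, which held 0.384% of its exon counts. Its gene level was also divided by the 2879 bases of exons 65 and 66 alone. That gave 81.8 ± 26.3 CPM per kb in BCR-ABL1 lines, 164 ± 11.3 in SFPQ-ABL1 lines and 340.2 ± 69.0 in MSCV lines. This takes all its gene counts to lie on those exons, while the exon counts hold only 9.25% of them. It would place Col5a1 ahead of Twsg1 in SFPQ-ABL1 lines too, with the Twsg1 length left as it was. With the merged length, neighbours in the order lay within 1 SD (the larger of the pair) for Fgl2, Ecm1 and Col9a3 in BCR-ABL1 lines, for Col5a1, Ecm1, Spp1, Muc6, Fgl2 and Col9a3 in SFPQ-ABL1 lines, and for Col9a3, Ecm1 and Muc6 in MSCV lines.

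Genes with the most similar pattern were ranked by the root mean square difference of log2 CPM, each gene centred on its own mean, over the 12 libraries among 9393 genes. For Col5a1 they were Cxcr4 (0.279), Ypel3 (0.286) and Abca2 (0.292). For Col9a3 they were Klk1b22 (0.409), Ift80 (0.455) and again Cxcr4 (0.463), and for Twsg1 Ptpn14 (0.425), Ccdc180 (0.431) and Plac8 (0.473). Fgl2 was followed most closely by Gsn (0.236), Ppm1j (0.247) and Tyrobp (0.280). Spp1 had Vegfc (0.717), Lgmn (0.751) and Adm2 (0.767), Muc6 had Mst1r (0.758), Plxdc1 (0.778) and Sprn (0.943), and Ecm1 had Gimap3 (0.920), C1s1 (1.04) and Mc1r (1.06). The own root mean square deviation was 1.97 for Ecm1, 2.0003 for Spp1 and 2.22 for Muc6, against 0.574 for Fgl2, and these distances grow with it. Klk1b22 and Gimap3 have near-identical paralogues, and their counts are uncertain. Between the 7 genes themselves the closest pair was Col5a1 and Col9a3 (0.634), and the farthest was Spp1 and Muc6 (4.04).

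No other collagen chain tested was called lower in BCR-ABL1 against MSCV lines. Of 42 other chains 16 passed the filter. In BCR-ABL1 against MSCV lines 4 rose and none fell, beside 15.8% and 16.3% of all genes, with a median log2 fold change of 0.19 against -0.01 over all genes tested. In SFPQ-ABL1 against BCR-ABL1 lines none rose and 5 fell, beside 13.2% and 12.8%, with a median of -0.77 against 0.01. Col5a3 had 1.26 ± 0.437 CPM in BCR-ABL1 and 0.259 ± 0.108 CPM in MSCV lines, 4.85-fold higher, and was 5.56-fold lower in SFPQ-ABL1 than in BCR-ABL1 lines. Col15a1, a basement membrane collagen, had 11.6 ± 2.08 CPM in BCR-ABL1, 4.13 ± 2.26 CPM in SFPQ-ABL1 and 4.57 ± 2.58 CPM in MSCV lines. Col4a4 had 1.43 ± 0.459 CPM in BCR-ABL1 and 0.729 ± 0.218 CPM in MSCV lines. Col17a1, a transmembrane collagen, had 0.496 ± 0.224 CPM in SFPQ-ABL1 and 1.47 ± 1.08 CPM in BCR-ABL1 lines. Col11a2, a fibrillar chain, had 20.2, 20.1 and 22.7 CPM in BCR-ABL1, SFPQ-ABL1 and MSCV lines. In BCR-ABL1 against MSCV lines 2 rose without BCR-ABL1 line 1, 3 or 4 or MSCV line 3 or 4, where Col4a4 and Col15a1 lost their calls, and Col15a1 lost it also without BCR-ABL1 line 2 or MSCV line 2. In SFPQ-ABL1 against BCR-ABL1 lines 2 fell without BCR-ABL1 line 3 or SFPQ-ABL1 line 3, and 3 fell without BCR-ABL1 line 1 or 4, or else SFPQ-ABL1 line 1 or 4, and 1 rose without SFPQ-ABL1 line 2. Col17a1 was 2.98-fold lower, and 1.93-fold lower with no call without BCR-ABL1 line 3.

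Genes that fold and process collagens were called in both directions. Of 31 such genes 18 passed the filter, and in BCR-ABL1 against MSCV lines 2 rose and 6 fell, beside 15.8% and 16.3% of all genes (median log2 fold change -0.29). Pcolce, the enhancer of procollagen carboxyl-terminal cleavage, had 6.46 ± 1.53 CPM in BCR-ABL1 and 19.1 ± 5.46 CPM in MSCV lines. Loxl3, a lysyl oxidase, had 13.1 ± 2.35 CPM in BCR-ABL1 and 20.1 ± 1.29 CPM in MSCV lines. Serpinh1, the collagen chaperone Hsp47, had 2.29 ± 0.762 CPM in BCR-ABL1 and 0.182 ± 0.0972 CPM in MSCV lines. Between SFPQ-ABL1 and BCR-ABL1 lines Pcolce (2.40-fold) and Loxl3 (1.77-fold) rose and 3 genes fell, among them Serpinh1 (4.04-fold lower), beside 13.2% and 12.8% of all genes. Against MSCV 1 gene rose, not 2, without BCR-ABL1 line 1, 2 or 3, without SFPQ-ABL1 line 1 or 3, or without any MSCV line. The 6 genes lower against MSCV were 3 without BCR-ABL1 line 4 or MSCV line 2, and the 3 lower against BCR-ABL1 lines were 1 without BCR-ABL1 line 2 or 4, or else SFPQ-ABL1 line 1 or 3, where Serpinh1 lost its call.

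Matrix glycoproteins and proteoglycans were called in both directions. Of 55 genes 20 passed the filter, and 4 rose and 6 fell in BCR-ABL1 against MSCV lines, beside 15.8% and 16.3% of all genes (median log2 fold change -0.36). Emilin1, an elastic fibre glycoprotein, had 59.5 ± 6.25 CPM in BCR-ABL1 and 113 ± 7.21 CPM in MSCV lines, and Lamb2, a laminin chain, had 33.7 ± 6.22 and 68.4 ± 13.2 CPM in the same groups. Mfge8, a secreted bridge between integrins and dying cells, had 27.8 ± 4.48 CPM in BCR-ABL1, 41.2 ± 12.8 CPM in SFPQ-ABL1 and 78.8 ± 5.08 CPM in MSCV lines. Comparing SFPQ-ABL1 with BCR-ABL1 lines, 2 rose and 3 fell, beside 13.2% and 12.8% of all genes. Emilin1 was 1.75-fold higher, and Lama5, another laminin chain, had 121.6 ± 29.0 CPM in SFPQ-ABL1 and 196 ± 36.7 CPM in BCR-ABL1 lines. Without BCR-ABL1 line 1, 3 or 4, SFPQ-ABL1 line 2, 3 or 4 or MSCV line 1 or 4, 1 gene rose there. Fbn1 (fibrillin) had 4.34 CPM in BCR-ABL1 line 4, 0.175 to 0.304 CPM in the other BCR-ABL1 lines and 1 positive library at 0.0134 CPM in SFPQ-ABL1 lines, and no fold change is given.

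The membrane-bound mucins differed in direction from each other. In all, 5 of 17 other mucin and trefoil genes passed the filter. Muc13, a membrane mucin, had 238 ± 46.8 CPM in BCR-ABL1 lines, 604 ± 161 CPM in SFPQ-ABL1 lines and 429 ± 94.9 CPM in MSCV lines, and was called in both comparisons with BCR-ABL1 lines, as was Muc6. Muc20, another membrane mucin, had 59.6 ± 10.02 CPM in BCR-ABL1 lines, 8.34 ± 11.9 CPM in SFPQ-ABL1 lines and 4.90 ± 1.71 CPM in MSCV lines. It was 12.2-fold higher in BCR-ABL1 than in MSCV lines and 7.14-fold lower in SFPQ-ABL1 than in BCR-ABL1 lines, and without SFPQ-ABL1 line 2 the last was 24.6-fold. In all 2 rose and 1 fell in BCR-ABL1 against MSCV lines, beside 15.8% and 16.3% of all genes. Then 1 rose and 3 fell in SFPQ-ABL1 against BCR-ABL1 lines, beside 13.2% and 12.8% of all genes, where 2 rose without SFPQ-ABL1 line 2.

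Among relatives of Fgl2 with a fibrinogen-like domain, 9 of 21 passed the filter. Angptl6, an angiopoietin-like secreted protein, had 38.8 ± 20.02 CPM in BCR-ABL1 lines, 2.59 ± 1.21 CPM in SFPQ-ABL1 lines and 1.72 ± 0.568 CPM in MSCV lines, 22.5-fold higher in BCR-ABL1 than in MSCV lines. Angptl4 had 14.3 ± 0.967 CPM in SFPQ-ABL1 and 9.51 ± 1.19 CPM in BCR-ABL1 lines. Angptl2 had 0.521 ± 0.313 CPM in BCR-ABL1 and 1.53 ± 0.648 CPM in MSCV lines, a call that was lost without BCR-ABL1 line 1, 2 or 3 or MSCV line 1 or 4, where none fell. In BCR-ABL1 against MSCV lines 2 rose and 1 fell, beside 15.8% and 16.3% of all genes. In SFPQ-ABL1 against BCR-ABL1 lines 1 rose and 1 fell, beside 13.2% and 12.8% of all genes, with 2 risen without BCR-ABL1 line 4 or SFPQ-ABL1 line 1.

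In the BMP and TGF-beta pathway 25 of 49 genes passed the filter, and 4 rose and 3 fell in BCR-ABL1 against MSCV lines, beside 15.8% and 16.3% of all genes (median log2 fold change 0.05). Tgfb1, the secreted growth factor, had 281 ± 33.3 CPM in BCR-ABL1 lines, 137 ± 18.5 CPM in SFPQ-ABL1 lines and 137 ± 21.3 CPM in MSCV lines, 2.06-fold higher in BCR-ABL1 than in MSCV lines. Id2, a transcriptional inhibitor and target of the pathway, had 59.3 ± 21.1 CPM in BCR-ABL1 lines, 10.98 ± 4.25 CPM in SFPQ-ABL1 lines and 16.7 ± 4.12 CPM in MSCV lines. Ltbp4, which holds latent TGF-beta in the matrix, had 42.7 ± 5.67 CPM in BCR-ABL1 and 63.6 ± 9.05 CPM in MSCV lines. With SFPQ-ABL1 set against BCR-ABL1 lines 2 rose and 4 fell, beside 13.2% and 12.8% of all genes, Tgfb1 and Id2 among those that fell, and 4 rose without BCR-ABL1 line 1.

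Matrix receptors were called in 6 of 16 genes tested, of 29 listed, in each comparison with BCR-ABL1 lines, beside 32.1% and 26% of all genes. In BCR-ABL1 against MSCV lines 2 rose and 4 fell. Itga5, the fibronectin receptor subunit, had 79.5 ± 7.32 CPM in BCR-ABL1 lines, 138 ± 24.6 CPM in SFPQ-ABL1 lines and 155 ± 7.52 CPM in MSCV lines. Itga4 was 3.34-fold lower in BCR-ABL1 than in MSCV lines. Ddr2, a collagen-binding receptor tyrosine kinase, had 3.97 ± 2.25 CPM in BCR-ABL1 lines, 0.153 ± 0.115 CPM in SFPQ-ABL1 lines and 0.242 ± 0.168 CPM in MSCV lines. Comparing SFPQ-ABL1 with BCR-ABL1 lines, 5 rose and 1, Ddr2, fell. There Dag1, the laminin receptor dystroglycan, had 188 ± 16.6 CPM in SFPQ-ABL1 and 131 ± 11.7 CPM in BCR-ABL1 lines. Without BCR-ABL1 line 3 or SFPQ-ABL1 line 3 or 4 only 3 rose there, without BCR-ABL1 line 1 or SFPQ-ABL1 line 2 it was 2 that fell, and without BCR-ABL1 line 2 or 4 or MSCV line 1 a single gene rose against MSCV.

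Of matrix proteases and inhibitors 20 of 48 passed the filter, with 3 higher and 4 lower in BCR-ABL1 against MSCV lines, beside 15.8% and 16.3% of all genes, and 4 higher and 4 lower in SFPQ-ABL1 against BCR-ABL1 lines, beside 13.2% and 12.8% of all genes. Ctsb, a lysosomal cathepsin, had 191 ± 15.6 CPM in BCR-ABL1 lines, 233 ± 15.1 CPM in SFPQ-ABL1 lines and 322 ± 10.6 CPM in MSCV lines. Plaur, the urokinase receptor, had 16.2 ± 7.35 CPM in BCR-ABL1 lines, 5.50 ± 1.32 CPM in SFPQ-ABL1 lines and 5.37 ± 0.921 CPM in MSCV lines. The membrane proteases differed in direction: Adam9 had 72.3 ± 10.7 CPM in BCR-ABL1 lines, 42.2 ± 8.44 CPM in SFPQ-ABL1 lines and 38.2 ± 4.18 CPM in MSCV lines, while Adam17 had 182 ± 21.6 CPM in SFPQ-ABL1 and 122 ± 10.8 CPM in BCR-ABL1 lines. In SFPQ-ABL1 against BCR-ABL1 lines 2 fell without BCR-ABL1 line 2 and 2 rose without BCR-ABL1 line 3.

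In SFPQ-ABL1 against MSCV lines 6 of the 128 genes tested on the 8 lists were called, 3 higher and 3 lower, beside 1.79% of all genes (0.814% higher and 0.977% lower). Fgl1, Fcgr2b and Adam19 rose, and Mfge8, Muc1 and Ctsb fell. Fcgr2b was 5.85-fold higher in SFPQ-ABL1 lines, Adam19, a membrane protease, was 16.2-fold higher at 4.15 ± 2.89 CPM in SFPQ-ABL1 against 0.258 ± 0.185 CPM in MSCV lines, Mfge8 was 1.91-fold lower and Ctsb 1.38-fold lower. Fgl1, at 0.630 ± 0.133 CPM in SFPQ-ABL1 and 0.197 ± 0.109 CPM in MSCV lines, and Muc1, at 0.0791 ± 0.0256 and 0.264 ± 0.101 CPM, were named after their values were seen. The collagen chains, collagen processing and BMP lists had 0 called by edgeR, with 1, 4 and 1 genes at an unadjusted p under 0.05, and 0, 2 and 1 called by DESeq2 and 0 each by limma-voom. Leaving out 1 library ended several of these calls: Mfge8 kept its call in 6 of the 12 fits without 1 library, Fcgr2b in 2, Ctsb in 9 and Adam19 in 4, while the call of Fgl1 was lost in 9 and that of Muc1 in 10. Muc1 was not called by DESeq2 or limma-voom. Over the 8 lists 0 genes were called without MSCV line 3 and 7 without SFPQ-ABL1 line 2.

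**Figure D4:**
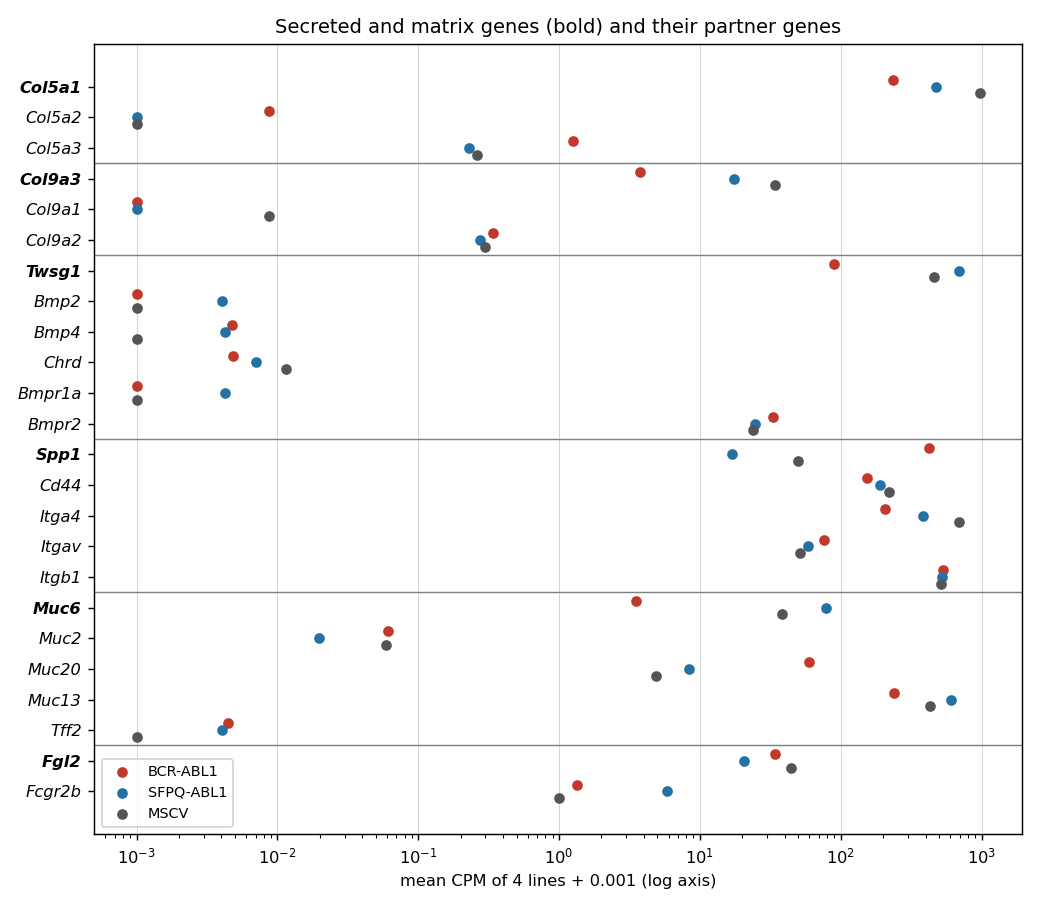
Mean CPM of 4 lines + 0.001, on a log axis, of 6 of the 7 genes (bold) and of genes that pair with, bind or resemble them, for BCR-ABL1, SFPQ-ABL1 and MSCV lines from top to bottom in each row. Col5a1, Col9a3 and Twsg1 lie at 3.75 CPM or more in each group while Col5a2, Col9a1, Bmp2, Bmp4, Chrd and Bmpr1a lie near the left edge, and the receptors Itgb1, Cd44, Itga4 and Itgav lie above 50 CPM.

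Markers of the labelled cell type and of other sources of matrix transcripts were read in the same libraries. Of 14 pro-B markers 3 reached 1 CPM in a group: Ptprc, at 338 ± 57.4 CPM in BCR-ABL1 lines, 269 ± 57.6 in SFPQ-ABL1 lines and 351 ± 58.1 in MSCV lines, Cd79a and Cd79b. Cd79a, a chain of the B cell receptor complex, averaged 42.5 ± 7.05 CPM in BCR-ABL1 lines, 58.1 ± 7.18 in SFPQ-ABL1 lines and 93.4 ± 4.05 in MSCV lines. Its partner Cd79b averaged 20.5 ± 3.79, 34.5 ± 1.96 and 49.6 ± 5.50 CPM in the same groups, so both had the order of Col5a1 and Col9a3. That order was not particular to them: Il3ra, Itga4, Itga5 and Ctsb had it too, and Ptprc did not. Of 5 pro-B markers tested, Cd79a, Cd79b and Vpreb1 were called lower in BCR-ABL1 against MSCV lines, beside 16.3% of all genes. They were called higher in SFPQ-ABL1 against BCR-ABL1 lines, beside 13.2% of all genes. Each count was 2 to 3 with 1 library left out. Vpreb1 was low, at 0.0749, 0.257 and 0.206 CPM in BCR-ABL1, SFPQ-ABL1 and MSCV lines. Cd79a was called lower in SFPQ-ABL1 against MSCV lines, beside 0.977% of all genes, a count of 0 to 2 with 1 library left out. The part of these markers in the levels of the 7 genes was not tested. The defining gene Pax5 had 23 counts in all 12 libraries and Il7r had 0. The IL-3 receptor chain Il3ra averaged 44.5 ± 4.28 CPM in BCR-ABL1 lines, 57.5 ± 3.54 in SFPQ-ABL1 lines and 85.3 ± 5.34 in MSCV lines, and all 3 listed receptor genes were detected, 2 of them, Csf2rb and Csf2rb2, near-identical. No fibroblast marker of 11 reached 1 CPM, with summed levels of 0.604 to 1.44 CPM in BCR-ABL1 lines, 0.362 to 1.03 in SFPQ-ABL1 lines and 0.642 to 1.02 in MSCV lines. No epithelial marker of 7 did either, and Epcam had 0 counts. Of 8 osteoblast and cartilage markers only Runx2 did, and Sox9 and Ibsp had 0 counts. Of 10 macrophage markers 4 did (Adgre1, Cd68, C1qb and Lyz2), C1qa and Marco had 0 counts, and the list summed to 69.4 to 208 CPM in BCR-ABL1 lines, 41.1 to 156 in SFPQ-ABL1 lines and 60.4 to 116 in MSCV lines. The part of macrophage transcripts in the levels of Spp1 and Fgl2 was not tested. In bulk RNA, fewer cells with a transcript and less of it per cell cannot be told apart.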

How the data were processed

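RNA was sequenced from 12 Ba/F3 lines, 4 per group. The authors deposited whole-number counts per gene and per exon, and the submitters' processing notes name Subread, featureCounts and the build mm10. Neither tool versions, strand setting nor annotation release were given in the sources used here, and the choice of reads behind the exon counts was not given either. Symbols and exons came from GENCODE M21, which held 55230 of the 55471 gene identifiers, and promoters from RefSeq (GRCm38.p6).

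Gene counts were scaled by TMM, filtered with filterByExpr and fitted with edgeR 4.0.16 (quasi-likelihood, group as the only term, all 12 libraries, R 4.3.3), with Benjamini-Hochberg adjustment over 17197 genes and a threshold of 0.05. An SE was taken as the size of the log2 fold change divided by the square root of the test's F statistic. The fit was tested on simulated data with 200 changed genes. Alternatives were DESeq2 1.42.0, limma-voom 3.58.1, other scalings, no filter, only the 8 libraries compared, a replicate block, and each library left out. Replicates differed beyond sampling noise (chi-square per degree of freedom 33.12 to 181.8 over 18 pairs). The labels call the lines independent, and p-values measure the spread between them. Intervals and limits from counts cover counting error only. Likeness used log2 CPM with a prior count of 2 among genes with a group mean of at least 5 CPM.

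The 7 genes and all lists were chosen with earlier results of these data known. The text names the 7 genes, the 3 most similar protein-coding genes of each, and, per list and comparison, up to 3 called genes with the smallest adjusted p and at least 1 CPM. Partner genes of the 7 were added for their known roles. One marker gene and one exon sequence are not reported here.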

Additional observations from a re-analysis of the deposited data

Results flagged for a closer look

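In 9 of 114 groups of 4 lines, 1 line lay far from the other lines by Dixon's criterion. Chance gives about 1 in 20 for independent normal values, and these genes share libraries, so the rates are not compared. Ecm1 had 39.3 CPM in BCR-ABL1 line 4. Muc20 had 26.02 CPM and Adam9 54.8 CPM in SFPQ-ABL1 line 2, where Fcgr2b had 0.948 CPM, below the other lines of that group. Fcgr2b had 2.06 CPM and Fbn1 4.34 CPM in BCR-ABL1 line 4. Fbn1 had 0.0134 CPM in SFPQ-ABL1 line 1 and 0 counts in the other lines of that group, where the ties at 0 alone meet the criterion. Lamb2 had 34.7 CPM in SFPQ-ABL1 line 1, below the others, and Ctsb 214 CPM in BCR-ABL1 line 2, above them.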

How the results depend on the processing

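Under the alternatives, 399 of 399 log2 fold changes of the 7 genes and 126 of 126 group levels moved by less than 1 SD between lines, although calls changed as given here. Leaving out 1 of 4 lines cannot move their mean by 1 SD of those lines. For levels in such fits the outcome was fixed in advance, and the counts are not read as robustness. The sign of the fold change held in all but Ecm1 in BCR-ABL1 against MSCV lines, which was not called and kept its sign in 14 of 19 alternatives (-1.22 to 0.91). The alternatives for levels, for exon blocks and for the length of Col5a1 were chosen after seeing the data. The comparison of SFPQ-ABL1 with MSCV lines depended most on the processing. Its 308 genes changed were 1131 with DESeq2, 110 with the 8 libraries alone, and 33 to 467 when 1 library was left out. Of the 7 genes, 2 were called there, against 5 with DESeq2, 1 with the 8 libraries alone, 4 without the filter and 0 to 4 with 1 library left out. On the 8 lists 6 genes were called there, against 11 with DESeq2, 3 with limma-voom, 2 with the 8 libraries alone and 0 to 7 with 1 library left out. Same-numbered lines of different groups had deviations correlated at -0.0063 to 0.385 (median 0.200, 7 of 12 pairs over 0.1), against a median of -0.079 and 6 of 36 pairs for different numbers. Since not every same-numbered pair passed 0.1 and no label says that a number marks a shared batch, the numbers were not taken as pairing. With a replicate block 726 genes and 5 of the 7 were called in SFPQ-ABL1 against MSCV lines, and Col15a1 had an adjusted p of 0.0512 (edgeR) in BCR-ABL1 against MSCV lines. Without normalization factors the split in SFPQ-ABL1 against MSCV lines was 210 higher and 114 lower, against 140 and 168. In SFPQ-ABL1 against BCR-ABL1 lines it was 2841 and 1750, against 2268 and 2203. The causes of these shifts were not tested.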
